A study of Mus musculus with 9 samples.

Results

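The genes described here are 35 genes of the pancreas, of 54532 in the deposited count table of mouse duodenum. They were chosen by gene name as a measure of pancreatic tissue: 12 serine protease zymogens, 2 carboxypeptidases, 5 lipases and cofactors, 2 amylases, 7 other secreted or granule products, 5 regulators or receptors, and 2 insulin genes. The study sequenced polyadenylated RNA of the duodenum from 9 male C57BL/6 mice, 1 library each, all fed regular chow for 3 months. There were 5 mice with the genotype Pla2g12b mutant and 4 WT mice, which the design text describes as matched in age. Which Pla2g12b change these 5 mice had, in how many copies, and whether controls were littermates is not given in the sources used here; the series title refers to C129Y, called there a dominant negative mutation. Pla2g12b encodes a secreted phospholipase A2 family protein without catalytic activity, and the series title links it to intestinal lipid absorption.

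The exocrine pancreas is made mostly of acinar cells, which store digestive enzymes as inactive zymogens in granules and release them through the duct into the duodenum. The pancreas lies in the curve of the duodenum, so that the organs touch. Acinar identity is kept by the transcription factor complex PTF1, of which PTF1A and RBPJL are subunits, and by BHLHA15 (MIST1), while beta cells of the islets make insulin. Enterocytes are not known to make the major zymogens, although some genes of the set are also active in gut, immune or stromal cells.

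Pancreatic transcripts were abundant in all 4 WT libraries and nearly absent from all 5 mutant libraries. The 35 genes took 0.0545%, 0.0486%, 0.0541%, 0.0604% and 0.0582% of reads in mutants 1 to 5, against 4.19%, 4.15%, 8.55% and 8.50% in WT 1 to 4 (2-sided exact permutation p = 0.0159, with the smaller tail doubled, the smallest that this form can give for 5 and 4 libraries). Most of the mutant reads belonged to 1 gene, the trypsin inhibitor Spink1, with 87.7% of them, against 0.416% of those in WT. Without Spink1 and Nupr1, the other 33 genes took 0.00543% to 0.00795% of mutant reads and 4.11% to 8.49% of WT reads. A set of 22 genes with at most 20 reads each over all mutants held 3, 4, 14, 25 and 16 reads in mutants 1 to 5, against 778420, 537138, 1065872 and 1112521 in WT 1 to 4. This set was picked for its low mutant reads, so its mutant counts are a description and not evidence for a difference. The other 13 of the 35 genes had more than 20 mutant reads each. Fewer pancreatic cells in a sample and less RNA per pancreatic cell cannot be told apart in bulk tissue.

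**Figure D1:**
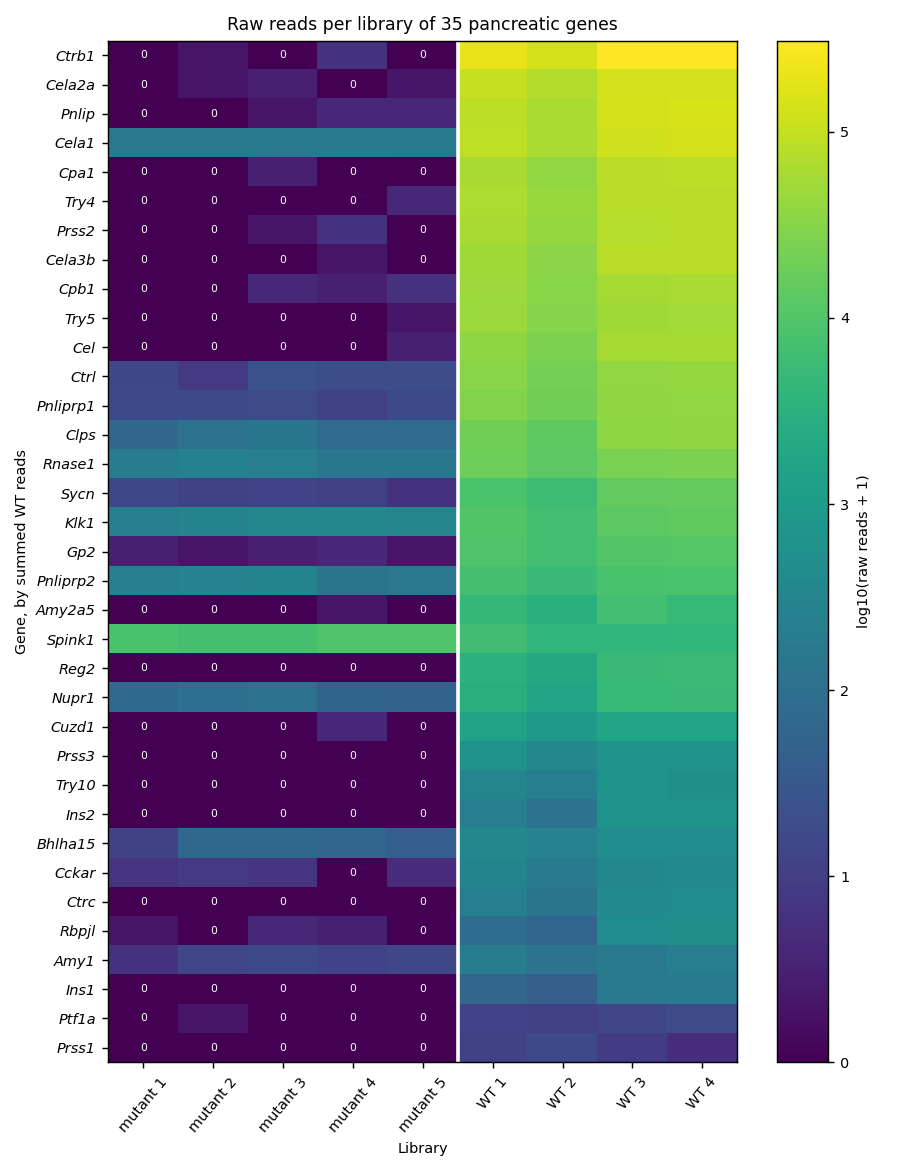
Raw reads of the 35 genes (rows, by summed WT reads) in the 5 mutant and 4 WT libraries (columns), coloured by log10(reads + 1); cells with 0 reads are marked 0. Ctrb1 reached 139118 to 309048 reads in each WT library and 0 to 5 in each mutant library, and Spink1 is the row that is brightest on the mutant side.

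Library totals were 16245982 to 17959658 reads in mutants and 16119639 to 24009157 in WT, so that 3 reads in a library correspond to 0.161 to 0.191 CPM in mutants and 0.122 to 0.185 CPM in WT. CPM is the usual scaling of read counts by library size, here with edgeR's normalised library sizes. Libraries fell into close pairs: mutants 2 and 3, mutants 4 and 5, WT 1 and 2, and WT 3 and 4. The SD of the log2 ratio over genes was 0.121 to 0.144 in these 4 pairs, against 0.337 to 0.439 in the other 12 pairs of 1 genotype. The labels give each library its own mouse; whether paired mice share a litter, a cage or a preparation is not given in the sources used here. The p-values over 9 libraries therefore measure a spread that the closeness of pairs may make too small, and each gene named below whose call ended with pairs summed is given with that p. Mitochondrially encoded RNA took 5.39% to 7.44% of reads in mutants and 3.80% to 4.06% in WT. Its part in the differences was not tested.

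Of the 35 genes, 33 passed the expression filter, many of them only through their WT reads. Those that passed only in this way had to differ, so the counts that follow describe the genes and are not evidence for a difference. With an adjusted p below 0.05 as the threshold (edgeR quasi-likelihood test, Benjamini-Hochberg over all genes), 32 of the 33 were called lower and 1 higher in mutants. Over all 15416 genes tested, 17.1% were called lower and 15.4% higher (32.5% in either direction). With each close pair summed to 1 unit the shares were 6.78% lower and 2.23% higher of 17295 genes. The median fitted log2 fold change was -11.23 over the 33 genes and 0.01 over all genes tested. With the 6 tested genes that had 0 mutant reads set to their bound, the median of the 33 was -9.99. The other 2, Prss1 and Ptf1a, were too low to test. In all 35 the mutant and WT libraries did not overlap, 34 with the mutants below; over all genes tested, 16.5% did not overlap with the mutants below and 14.4% with the mutants above.

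The serine protease zymogens made up 64.1% of the pancreatic reads in WT. The largest was Ctrb1, chymotrypsinogen B (ENSMUSG00000031957, chromosome 8, 111686519 to 111691010, minus strand, GRCm38). It had 0, 0.0538, 0, 0.294 and 0 CPM in mutants 1 to 5, against 8214, 8064, 18295 and 18073 CPM in WT 1 to 4. WT 3 and 4 stood far above WT 1 and 2, and the mutants held 1 read in mutant 2 and 5 in mutant 4. The WT level was 179596 times the mutant level, with a 95% counting interval from 82512 to 489386 (edgeR adjusted p = 7.51e-08). Per kilobase of gene model, Ctrb1 averaged 14991 ± 6606 CPM in WT (SD, n = 4), and the next gene, Try4, averaged 4594 ± 1595.

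The elastases split by what remained in the mutants. Cela2a, the pancreatic elastase 2A, had 4 reads over the 5 mutants and 6029 ± 2131 CPM in WT (SD, n = 4). Cela3b, elastase 3B, had 1 mutant read, in mutant 4, and 3466 ± 1672 CPM in WT (SD, n = 4). Cela1, elastase 1 (chromosome 15, 100674421 to 100687921, minus strand), had 159, 160, 166, 187 and 165 reads in mutants 1 to 5, against 91936, 62913, 127059 and 134144 in WT 1 to 4. Its mutant level of 9.81 ± 0.879 CPM (SD, n = 5) was thus even between libraries and was 0.170% of its WT mean. Cela1 fell by 9.20 on the log2 scale (SE 0.32, adjusted p = 3.45e-08), and its interval for the WT-to-mutant ratio, 529 to 607, lies entirely below that of Cela2a, 48554 to 456272. Both intervals cover counting error only.

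Promoters of 3 such genes are shown because acinar genes are known to share PTF1 sites, in which an E-box is followed closely by a TC-box. RefSeq promoters (GRCm38.p6) were matched by symbol for 28 of the 35 genes, and the 250 bases before the first listed start were searched on both strands for the letters CACCTG (one form of the E-box), TTTCCC (the core of the TC-box) and TATAAA. Below, matches of these are in capitals, read 5′ to 3′ on the strand of the gene.
Cela1, chr15:100687921-100688170, minus strand: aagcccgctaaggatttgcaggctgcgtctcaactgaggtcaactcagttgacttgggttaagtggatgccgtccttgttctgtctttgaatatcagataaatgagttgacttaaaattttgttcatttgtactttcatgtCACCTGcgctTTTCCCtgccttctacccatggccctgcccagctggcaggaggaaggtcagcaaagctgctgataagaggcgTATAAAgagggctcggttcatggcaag
Cel, chr2:28563404-28563653, minus strand: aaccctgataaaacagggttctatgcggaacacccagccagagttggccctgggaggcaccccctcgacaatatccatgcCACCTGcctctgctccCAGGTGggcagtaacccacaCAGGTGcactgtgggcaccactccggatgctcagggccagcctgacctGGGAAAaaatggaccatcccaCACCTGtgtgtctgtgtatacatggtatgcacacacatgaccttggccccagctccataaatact
Cela3b, chr4:137430521-137430770, minus strand: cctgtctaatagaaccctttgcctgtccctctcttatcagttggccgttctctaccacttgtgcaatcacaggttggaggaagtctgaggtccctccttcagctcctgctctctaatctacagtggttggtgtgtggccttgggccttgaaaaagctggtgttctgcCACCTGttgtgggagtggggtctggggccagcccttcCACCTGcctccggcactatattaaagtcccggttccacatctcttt
In the Cela1 promoter the E-box letters start 109 bases and the TC-box letters 99 bases before the transcription start, with TATAAA at 27 bases. The promoter of Cel, carboxyl ester lipase, held CACCTG 4 times, in either orientation, and 1 TC-box match, and that of Cela3b held CACCTG at 83 and at 46 bases. All 3 promoters shown thus held CACCTG, which other promoters of the set lacked. Those of Ctrb1 and Cpa1 held TTTCCC alone and that of Pnlip held TATAAA alone. Those of Sycn and Ins1 held no match. CACCTG was present in 15 of the 28 promoters (53.6%), against 17.1% of 27025 promoters of all genes in that table. TTTCCC was present in 8 (28.6%, against 21.9%) and TATAAA in 9 (32.1%, against 13.0%). Both an E-box and a TC-box match with at most 25 bases between them were found in 3 (10.7%, against 0.803%): Cela1, Cel and Prss1. A match is a description of the letters and does not show binding.

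The other chymotrypsin-like genes were Ctrl and Ctrc. Ctrl, a chymotrypsin-like protease, had 14, 7, 23, 19 and 19 reads in mutants 1 to 5, against 32078, 22349, 40805 and 42709 in WT 1 to 4. It fell by 10.94 on the log2 scale (SE 0.39, adjusted p = 7.51e-08). Ctrc, chymotrypsin C, which acts on other zymogens, had 0 reads in every mutant, against 236, 127, 405 and 439 in WT 1 to 4, so that it was at least 458-fold lower in mutants (a count of 0 over the 5 libraries taken as 3 reads). Its level is uncertain: its gene model spans that of Cela2a and shares 305 of its 1428 exon bases with it, and 94 with Casp9 on the opposite strand. The protocol does not mark strand.

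Among the trypsinogens, 3 were abundant and 3 were minor. Try4 had 3 mutant reads, all in mutant 5, and 64846, 43285, 78383 and 80878 reads in WT 1 to 4. Try5 had 1 mutant read, also in mutant 5, and 31753 to 53716 in WT. Prss2, anionic trypsinogen, had 0, 0, 1, 5 and 0 mutant reads and 41065 to 79401 in WT. All 3 were thus near 0 in the mutants and were called lower (adjusted p = 2.55e-08, 1.92e-09 and 7.47e-08). Try10 and Prss3 had 0 mutant reads, against 228 to 640 and 348 to 644 in WT, and were at least 658-fold and 851-fold lower. Prss1, which in this table is a minor gene, had 0 mutant reads and 11, 15, 8 and 4 in WT 1 to 4, and was not tested. It had the lowest reads of the 35 genes in WT 3 and 4.

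The split of reads between trypsinogens depends on how shared reads were counted, which is not given in the sources used here. Try4 and Try5 lie side by side on chromosome 6 (41302269 to 41305532 and 41311233 to 41316841, opposite strands), and their first annotated transcripts are 97.1% identical, with 23 differing positions in 801 bases and an identical run of 274 bases. A stretch of 60 bases, bases 479 to 538 of each transcript, is shown with the differing bases in capitals. It was picked for its differences within the middle part of the transcripts, and their ends were not searched.
Try4: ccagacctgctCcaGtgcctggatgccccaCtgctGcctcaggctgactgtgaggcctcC
Try5: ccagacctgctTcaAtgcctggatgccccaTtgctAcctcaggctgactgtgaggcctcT
Of the 100-base windows of Try4 transcripts, 25.6% also occur in Try5, and 325 of the 723 windows of Prss3 occur in Gm10334. Prss2 shared no 100-base window with any other gene. The ratio of Try4 to Try5 was 1.54 and 1.51 in WT 3 and 4, against 1.37 and 1.36 in WT 1 and 2, so the balance of the assigned reads was alike within a pair.

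Both carboxypeptidases were near 0 in the mutants. Cpa1, carboxypeptidase A1 and the marker chosen for acinar cells (ENSMUSG00000054446, chromosome 6, 30639218 to 30645363, plus strand), had 0, 0, 2, 0 and 0 mutant reads, against 58786, 40373, 81479 and 88316 in WT 1 to 4. Acinar transcripts were thus present in every WT library, while their marker was at 0 in 4 of 5 mutants. The WT level of Cpa1 was 153144 times the mutant level, with a counting interval from 42394 to 1264560 (edgeR adjusted p = 5.23e-08). Cpb1, carboxypeptidase B1, had 0, 0, 3, 2 and 5 mutant reads and 33492 to 61652 in WT, and fell by 14.45 (SE 0.46, adjusted p = 3.45e-08).

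The lipase genes kept very different shares of their WT levels. Pnlip, pancreatic triglyceride lipase, had 0, 0, 1, 3 and 3 mutant reads, against 89524, 61527, 134141 and 140489 in WT 1 to 4. Cel had 2 mutant reads, both in mutant 5, and 25285 to 57391 in WT. Their WT levels were 69253 times (interval 33611 to 172249) and 98888 times (27375 to 816555) the mutant levels. Clps, colipase, the cofactor that anchors pancreatic lipase to fat droplets, kept 64, 114, 138, 84 and 81 reads in mutants 1 to 5, against 20011, 13587, 36177 and 38647 in WT 1 to 4. Its mutant level was 0.367% of the WT mean, and it fell by 8.08 (SE 0.48, adjusted p = 9.33e-06). The lipase-related Pnliprp1 kept 11 to 18 reads per mutant library, which is 0.0512% of its WT level. Pnliprp2, which also cleaves galactolipids, kept 229, 267, 281, 128 and 149 reads in mutants 1 to 5, against 7370, 5185, 8198 and 8415 in WT 1 to 4. At 3.09% of WT its fall was 5.02 (SE 0.30, adjusted p = 5.92e-06), and Pnlip, Pnliprp1 and Pnliprp2, which neighbour each other on chromosome 19, thus differed in what remained. The levels of Pnliprp2 were 14.4 to 16.6 CPM in mutants 1 to 3 and 7.54 and 8.60 CPM in mutants 4 and 5, with no overlap between these libraries.

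**Figure D2:**
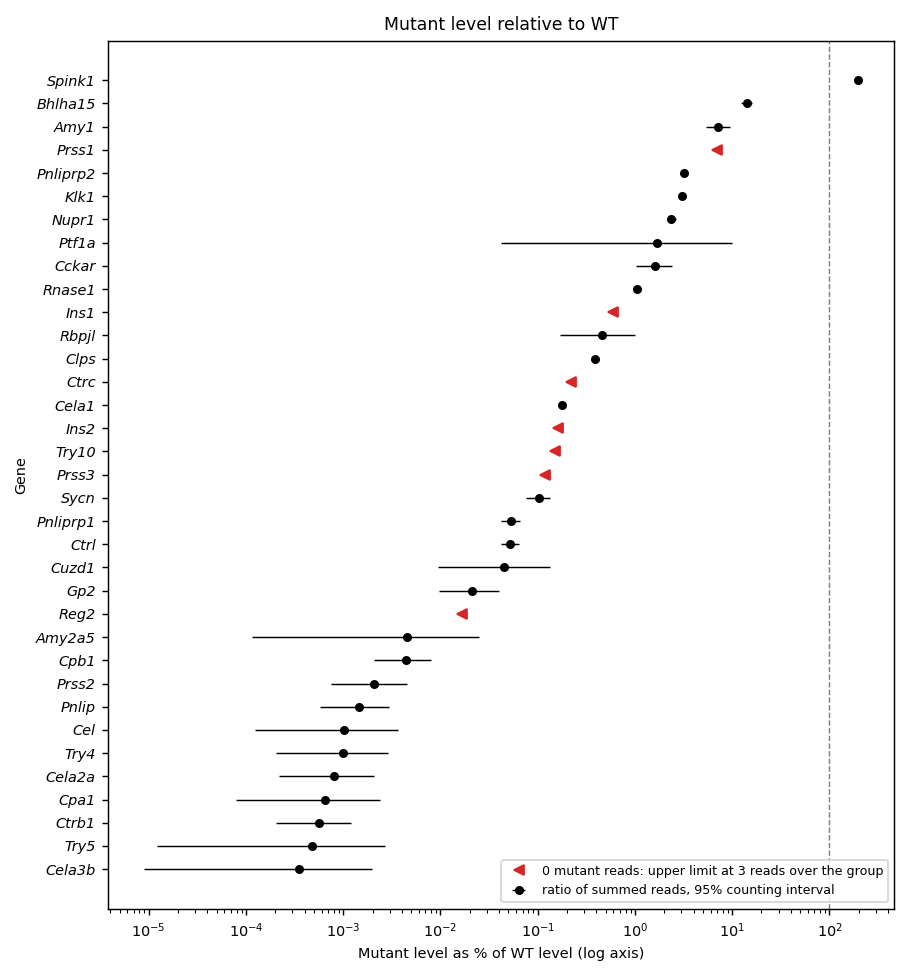
Level in mutants as a percentage of WT (log axis) for each of the 35 genes, from reads summed over libraries, with 95% counting intervals; red triangles are upper limits for genes with 0 mutant reads, at 3 reads over the group, and the dashed line is an equal level. Spink1 alone lies above equality, and Bhlha15 and Amy1 are next. Among the serine protease zymogens that had mutant reads, Cela2a, Cela3b, Ctrb1, Try4, Try5 and Prss2 lie lowest.

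Pancreatic amylase was also lost from the mutants, but its copies were counted unevenly. Amy2a5 (chromosome 3, 113247178 to 113258837, minus strand), 1 of a group of near-identical amylase genes, had 1 mutant read, against 4583, 3115, 7114 and 4646 reads in WT 1 to 4. Within WT 3 and 4 it differed by 0.69 on the log2 scale (271.7 CPM in WT 4 and 439 in WT 3), the largest difference inside that pair among the 33 genes with at least 1 CPM, whose median was 0.04. The copies Amy2a4, Amy2a3, Amy2a2 and Amy2a1 ran the other way within this pair, with 0.66, 0.68, 0.52 and 0.89 more in WT 4. Of the 100-base windows of Amy2a5, 44.3% occur in each of Amy2a2, Amy2a3 and Amy2a4. Summed with Amy2b, which the table marks as a pseudogene, the 6 copies had 4 reads over the mutants and 29047, 18879, 44143 and 53508 in WT 1 to 4, with a difference within WT 3 and 4 of 0.20. Amy2a5 is thus 1 part of a larger amylase signal and its own level is uncertain.

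**Figure D3:**
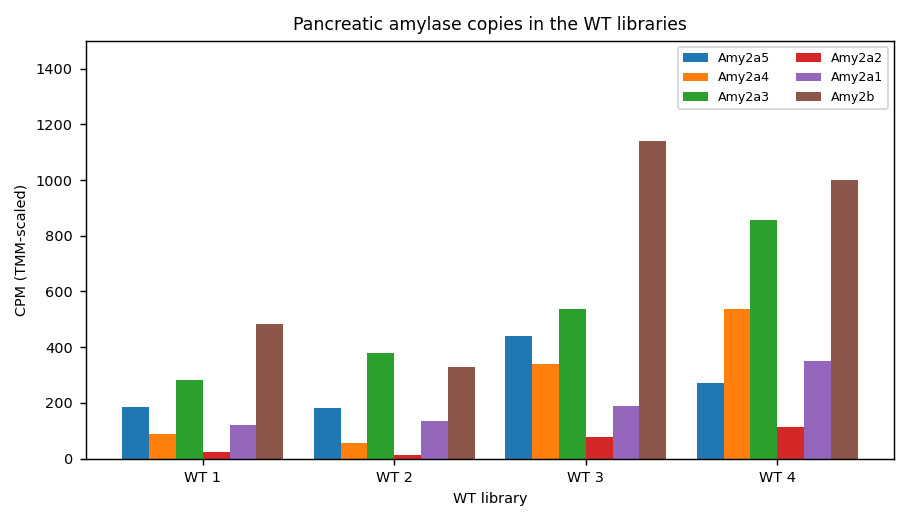
CPM of 6 amylase copies in the 4 WT libraries; the mutants, with 4 reads in all, are not drawn. Bars are single libraries without error. Amy2a5 is higher in WT 3 than in WT 4, while Amy2a4, Amy2a3, Amy2a2 and Amy2a1 are higher in WT 4.

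Amy1, the salivary and liver type of amylase, was low in both groups and kept more. It had 5, 13, 15, 12 and 14 reads in mutants 1 to 5, against 209, 121, 164 and 226 in WT 1 to 4, or 7.04% of the WT mean, and fell by 3.81 (SE 0.27, adjusted p = 3.96e-06). The gene model shares 1128 of its 3446 exon bases with Rnpc3 on the same strand, so reads of these genes cannot be told apart there.

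Among the other secreted and granule products, 6 of 7 were called lower. Reg2, a regenerating lectin of the pancreas, had 0 reads in every mutant and 3234, 2084, 5134 and 5450 in WT 1 to 4, at least 6036-fold lower in mutants. Gp2, the main membrane glycoprotein of zymogen granules, had 1 to 3 reads per mutant library and 6604 to 10817 in WT. Cuzd1, another zymogen granule protein, had 3 mutant reads, all in mutant 4, and 914 to 1776 in WT. Sycn, syncollin, which binds the inside of the granule membrane, kept 5 to 14 reads per mutant library, against 5723 to 15505 in WT. Gp2 is also a surface receptor of M cells, the epithelial cells over lymphoid follicles, and held 9 reads over the 5 mutants. The follicle list of 6 genes summed to 1.41 to 2.60 CPM in mutants and 2.16 to 4.07 CPM in WT.

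Rnase1 and Klk1 kept more reads. Rnase1, the pancreatic type ribonuclease, which endothelium also makes, had 209, 255, 226, 145 and 144 reads in mutants 1 to 5, against 19389, 13056, 24033 and 25960 in WT 1 to 4, and fell by 6.63 (SE 0.31, adjusted p = 9.94e-07). Its level was 13.3 to 13.7 CPM in mutants 1 to 3 and 8.54 and 8.31 in mutants 4 and 5. Klk1, tissue kallikrein, had 233, 287, 326, 361 and 321 reads in mutants 1 to 5, against 10167, 7121, 12778 and 13878 in WT 1 to 4, and fell by 5.09 (SE 0.26, adjusted p = 1.31e-06). The mutant levels were 1.01% and 2.94% of the WT means.

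Spink1 was the exception. It encodes a secreted inhibitor that protects the pancreas from trypsin, and it is also made by the gut lining. It had 8359, 7324, 7396, 9550 and 9415 reads in mutants 1 to 5, against 6271, 4021, 4203 and 4310 in WT 1 to 4. Its level was 394 to 562 CPM in mutants and 233 to 259 CPM in WT, so every mutant library lay above every WT library, and the mutant mean was 198% of the WT mean. It rose by 0.98 on the log2 scale (SE 0.11, adjusted p = 7.4e-05) and was called higher in all 22 alternative fits, with adjusted p of at most 0.0119. Within WT, Spink1 was 1.05 times as high in WT 3 and 4 as in WT 1 and 2.

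Of the 5 regulators and receptors, 4 were low even in WT, at most 30.6 CPM, and Nupr1 was higher. Ptf1a, the DNA-binding subunit of PTF1, had 1 read over the mutants, in mutant 2, and 12, 10, 13 and 17 in WT 1 to 4, and was not tested. It shares 609 of its 1508 exon bases with the antisense gene Ptf1aos. Rbpjl, the acinar form of RBPJ in PTF1, had 1, 0, 3, 2 and 0 mutant reads and 90, 61, 469 and 523 in WT 1 to 4, and fell by 7.75 (SE 1.15, adjusted p = 0.0012; adjusted p = 0.153 with the close pair as a random block). Bhlha15, which shapes the secretory apparatus of acinar cells and is also made by plasma cells, kept 11, 69, 66, 60 and 42 reads in mutants 1 to 5, against 363, 267, 458 and 460 in WT 1 to 4. Mutant 1, with 0.700 CPM, was the lowest of the mutants, where mutants 2 to 5 held at least 2.42 CPM. It fell by 2.89 (SE 0.39, adjusted p = 0.000411), the smallest fall of the 32. Cckar, the receptor through which cholecystokinin drives secretion in rodents, had 6, 7, 6, 0 and 4 mutant reads and 169 to 419 in WT, and fell by 5.97 (SE 0.46, adjusted p = 9.82e-06). Nupr1, a stress-induced nuclear protein, had 55 to 108 reads per mutant library and 2802, 1798, 4841 and 5245 in WT 1 to 4, or 104 to 307 CPM. It fell by 5.47 (SE 0.45, adjusted p = 5.93e-05).

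Both insulin genes were detected in each WT library and in none of the mutants. Ins2 (chromosome 7, 142678656 to 142743381, minus strand) had 0 reads in every mutant, against 223, 121, 665 and 619 in WT 1 to 4. Ins1 (chromosome 19, 52264323 to 52265456, plus strand), the rodent-specific second gene, had 0 reads in every mutant, against 63, 44, 168 and 172 in WT 1 to 4. Ins2 was at least 618-fold and Ins1 at least 170-fold lower in mutants, and called at adjusted p = 0.00974 for Ins2 and 0.00233 for Ins1; the call of Ins2 ended with close pairs summed (adjusted p = 0.101). The ratio of Ins2 to Ins1 was 2.75 to 3.96 in the 4 WT libraries. Insulin reads were a small part of the pancreatic signal, with 0.00300 to 0.00816 reads of Ins2 per read of Cpa1 in WT.

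The amount of pancreatic RNA differed between the WT pairs, as the per-library values show. Among the 33 genes with at least 1 CPM in WT, the median log2 ratio of WT 3 and 4 over WT 1 and 2 was 1.01, and all 33 ratios were above 0. Over 14193 genes of at least 1 CPM the median was -0.03, with 5th and 95th percentiles of -0.61 and 0.70. A ratio of 1 or more was reached by 17 of the 33, against 339 of the 14193, or 2.39%. These values are a description of 2 pairs, without a test. Zymogen and carboxypeptidase genes with at least 1 CPM were 1.62 (Prss3) to 2.99 times (Ctrc) as high in WT 3 and 4, with Try5 at 1.67, Cpa1 at 2.15, Ctrb1 at 2.23, Cela3b at 2.43 and Try10 at 2.76. Ins1 and Ins2 were 3.99 and 4.80 times as high, Clps 2.80 times, Sycn 2.69 times and Nupr1 2.77 times, while Pnliprp2 was 1.66 times as high. Rbpjl was 8.27 times as high, with 28.9 and 30.6 CPM in WT 3 and 4, against 3.67 and 3.54 CPM in WT 1 and 2.

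**Figure D4:**
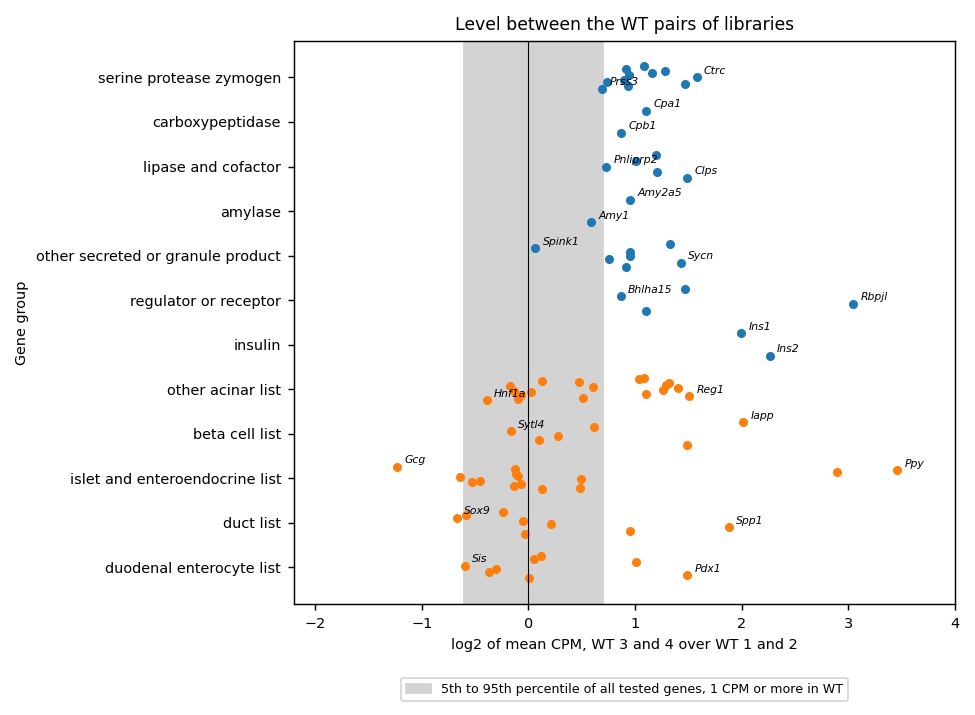
Log2 ratio of mean CPM in WT 3 and 4 over WT 1 and 2 for the 35 genes by role (blue; 33 with at least 1 CPM) and for 5 other lists (orange); the grey band holds the 5th to 95th percentile of 14193 genes. Most blue points lie near 1, Spink1 lies near 0, and Rbpjl, Ins1 and Ins2 lie furthest right among them.

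Of the further acinar genes, some were nearly absent from the mutants and others were not. Several of the latter are also made by the gut, and the cell source of their reads was not tested. In a list of 22 further acinar genes, 19 were tested, of which 14 were lower and 1 higher, against 17.1% lower and 15.4% higher of all genes. The list was chosen with earlier results of these data known, and genes that passed the filter only through WT reads had to differ. The median fitted log2 fold change of the 19 was -6.93, or -4.60 with 4 genes of 0 mutant reads at their bound. Over all 22 genes, 7 had 0 mutant reads, 4 had 1 to 3, 2 had 4 to 20 and 9 had more than 20. The table entry 2210010C04Rik, a trypsin-like gene, had 1 mutant read and 34474 to 74697 reads in WT. Pla2g1b, the pancreatic phospholipase A2, had 1 mutant read and 1485 to 3110 per WT library, and Serpini2, a protease inhibitor of the pancreas, had 0 and 359 to 559. Among the genes that kept many reads, Zg16, a lectin also made by goblet cells, had 27341 reads over the mutants and 182716 over WT and fell by 2.95 (SE 0.21, adjusted p = 6.99e-06). Dmbt1, a mucosal scavenger protein, kept 47.8% of its WT level and Rab3d, a secretory granule GTPase, 43.4%. Slc39a5, a zinc transporter of gut and pancreas, was the 1 gene called higher, at 0.28 (SE 0.09, adjusted p = 0.032). That call ended in 10 of 22 alternative fits, among them those without mutant 4, without mutant 5, without WT 3 and without WT 4 (edgeR adjusted p = 0.0618, 0.0714, 0.0952 and 0.0942), and with pairs summed (adjusted p = 0.285). Reg1, which other gut cells can also make, was not called (-1.52, SE 0.68, adjusted p = 0.127). The log2 ratio of WT 3 and 4 over WT 1 and 2 was 0.13 for Zg16, 0.03 for Rab3d and -0.17 for Slc39a5. It was 0.52 for Dmbt1 and 1.51 for Reg1, against a median of 1.01 over 33 of the 35 genes. The levels of Zg16 and Rab3d in WT thus hardly differed between the pairs. These 5 genes were chosen after their values were seen.

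A search over all genes for at least 10 CPM in every WT library and at most 3 reads over the mutants found 18 genes. Of these, 10 were among the 35 and 8 were others: 5 amylase copies (Amy2a1, Amy2a2, Amy2a3, Amy2a4 and Amy2b), 2210010C04Rik, Pla2g1b and Serpini2. Of these 8, 4 were in the list of further acinar genes.

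Islet and duct genes that the gut shares told less. Of 12 further beta cell genes in the table, 7 were tested, 4 of them lower and 0 higher, against 17.1% lower of all genes. Only 2 were lower with pairs summed (6.78% of all genes) and 2 with voom and a random pair effect. Iapp, the beta cell peptide amylin, had 2, 12, 2, 12 and 4 mutant reads, against 30, 30, 103 and 96 in WT 1 to 4, and fell by 3.29 (SE 0.64, adjusted p = 0.00265; adjusted p = 0.0672 with the random pair effect). The others called were Glp1r at -2.85 (SE 0.32), Sytl4 at -1.16 (SE 0.36) and Ero1lb at -0.61 (SE 0.15), which other cells also make. The calls of Sytl4 and Ero1lb ended with pairs summed (adjusted p = 0.153 and 0.117), and that of Sytl4 also with the random pair effect (adjusted p = 0.177). It ended too without mutant 1, mutant 4, WT 2 or WT 3 (adjusted p = 0.054, 0.0589, 0.0889 and 0.0585). The 3 tested genes not called were Pdx1 at -0.98 (SE 0.82), Ucn3 at -0.96 (SE 0.42) and Slc2a2 at 0.29 (SE 0.12). Of the 5 too low to test, Nkx6-1 went the other way. It had 11, 15, 7, 0 and 0 reads in mutants 1 to 5 and 1, 1, 2 and 3 in WT 1 to 4. Mafa and Ffar1 had 7 and 33 mutant reads, against 12 and 51 in WT. G6pc2 and Slc30a8 had 0, against 35 and 3. Of 17 genes shared by islets and gut endocrine cells, 14 were tested, with 1 lower, Chgb at -1.17 (SE 0.27; adjusted p = 0.0878 with pairs summed), and 0 higher. Ppy, pancreatic polypeptide, was not tested; it had 0 reads in every mutant, against 5, 10, 76 and 67 in WT 1 to 4. Of 10 duct genes 8 were tested, with 3 lower and 1 higher, against 17.1% lower and 15.4% higher of all genes. Muc1 was at -5.97 (SE 0.46), Spp1 at -4.54 (SE 0.58) and Bicc1 at -1.74 (SE 0.45), while Cftr rose by 0.40 (SE 0.09). The calls of Bicc1 and Cftr ended with pairs summed (adjusted p = 0.115 and 0.0858). Pyy, peptide YY of the same family as Ppy, had 6, 7, 5, 1 and 1 mutant reads and 8, 9, 53 and 52 in WT 1 to 4. The log2 ratio of WT 3 and 4 over WT 1 and 2 was 3.46 for Ppy, 2.90 for Pyy and 1.88 for Spp1. These genes did not stand for their lists. Among genes with at least 1 CPM in WT, the median ratio was -0.10 over 14 genes shared by islets and gut endocrine cells. It was -0.04 over 8 duct genes. Ppy and Pyy were chosen after their values were seen.

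The samples were checked against markers of the duodenum and of neighbouring tissues. The 8 enterocyte genes summed to 17173 to 24717 CPM in mutants and 16402 to 16681 CPM in WT, with 3 of 8 called higher (Fabp1, Fabp2 and Sis) and 0 lower, against 15.4% and 17.1% of all genes. With pairs summed these 3 calls ended (adjusted p = 0.123, 0.0622 and 0.0829). Pdx1, a transcription factor of both proximal duodenum and beta cells, had 12.6, 2.58, 2.01, 29.8 and 32.4 CPM in mutants 1 to 5, against 16.7, 16.3, 47.4 and 45.1 CPM in WT 1 to 4, and was not called (-0.98, SE 0.82, adjusted p = 0.402). For Pdx1, mutants 2 and 3 were low and mutants 4 and 5 were within the WT range. Ctrb1 had 0 to 5 reads in each mutant library. Pdx1 is 1 gene, chosen after its values were seen, and the place of sampling along the duodenum was not tested. The WT sums of the 8 enterocyte genes were close, but single genes differed between the WT pairs. The log2 ratio of WT 3 and 4 over WT 1 and 2 was 1.49 for Pdx1 and 1.01 for Alpi. It was 0.12 for Fabp1, 0.05 for Fabp2 and 0.01 for Gata4, and -0.31 for Vil1, -0.37 for Apoa4 and -0.60 for Sis. Adipose, stomach, liver and mesothelium lists held 0, 1, 2 and 0 lower genes and 0 higher among 5, 1, 4 and 3 tested; the stomach list summed to 0.700 to 1.21 CPM in mutants and 2.03 to 2.24 CPM in WT. Tff1 was at 0 reads in all 9 libraries. The follicle list had 1 tested gene, Cxcl13, which was lower (adjusted p = 0.0623 with pairs summed). With close pairs summed, none of the enterocyte, follicle, liver and islet and gut endocrine lists kept a call, and the beta cell and duct lists had 2 lower genes each. The stomach list still had 1 lower gene in that fit. The part of these lists in the pancreatic difference was not tested.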

How the data were processed

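RNA of the duodenum was sequenced in 5 mutant and 4 WT libraries. HISAT2 2.0.5 and featureCounts 1.5.0-p3 are named in the submitters' processing notes, as are the builds GRCh37, hg19 and mm39. The authors deposited whole-number read counts per gene, without normalization, per the file headers and values; the handling of reads shared by genes is not given in the sources used here. Coordinates are those of the deposited table, called GRCm38 because 53585 of its 54532 gene identifiers have the same start and end in GENCODE M21. The start or end differs there for Ins1, Pnlip, Pnliprp2 and Spink1.

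The counts were fitted with edgeR 4.0.16 in R 4.3.3 (TMM scaling, filterByExpr, robust quasi-likelihood, genotype alone), with Benjamini-Hochberg adjustment over all genes tested. CPM uses the scaled library sizes, and level per kilobase divides it by the deposited gene length. The scripts were tested on simulated data. Intervals are exact binomial (95%), and intervals and the floor of 3 reads cover counting error only. The share of reads was tested by an exact permutation of libraries, with the smaller tail doubled; counting splits by absolute difference instead gave p = 0.00794. That second form was looked at after the first value was known and is not used.

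The genes and lists were chosen with earlier results of these data known. All 35 genes are named, with up to 4 called genes of smallest p per list and the genes found by the search over all genes. One gene that this rule names is not reported here. Reg1, Zg16, Dmbt1, Rab3d, Slc39a5, Pdx1, Ppy, Pyy and Tff1 fall outside this rule and were chosen after their values were seen. The same holds for the uncalled genes of the enterocyte and beta cell lists. The amylase copies beyond Amy2a5, Amy2b included, were found by the search over all genes. Their family sum was chosen after their values were seen. Alternatives covered scaling, filtering, DESeq2 1.42.0, limma 3.58.1 voom, the mouse number as a block, summed pairs, and libraries or pairs left out. After a first run, the list genes followed through the alternatives were limited to those named. Mouse numbers did not pair mutant and WT libraries.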

Additional observations from a re-analysis of the deposited data

Results flagged for a closer look

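In 10 of 70 sets of values (each of the 35 genes in each genotype), 1 library stood apart from the others of its group by Dixon's criterion. All were mutant libraries in which 1 to 5 reads stood against fewer, mostly 0, in the others. Where the other libraries are at 0, any read meets the criterion, so its chance rate of about 1 in 20 does not apply and nothing is read from the number of sets. Mutant 4 held 0.0589 CPM of Cela3b, 0.294 CPM of Ctrb1, 0.294 CPM of Prss2, 0.0589 CPM of Amy2a5 and 0.177 CPM of Cuzd1. Mutant 5 held 0.173 CPM of Try4, 0.0577 CPM of Try5 and 0.115 CPM of Cel. Mutant 3 held 0.118 CPM of Cpa1, and mutant 2 held 0.0538 CPM of Ptf1a.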

How the results depend on the processing

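Of the calls of the 33 tested pancreatic genes under 22 alternative fits, 724 kept their direction and side of the threshold and 2 did not: Rbpjl with the close pair as a random block in voom (adjusted p = 0.153) and Ins2 with close pairs summed (adjusted p = 0.101). The cause was not tested. Many of these genes passed the filter only through WT reads and had to differ in each fit to the same libraries. The number of kept calls is therefore a description and not evidence for a difference. The mutant minus WT difference in share of reads was -6.29 percentage points (exact permutation p = 0.0159). Fewer units raise the smallest p that can be reached: the difference was -6.29 with close pairs summed (exact permutation p = 0.2), -6.29 without mutants 2 and 3 or without mutants 4 and 5 (exact p = 0.0571 each), -8.47 without WT 1 and 2, and -4.12 without WT 3 and 4 (exact p = 0.0952 each). It ranged from -7.02 to -5.56 with single libraries left out.

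With the mouse number as a replicate block, 3960 genes were called in all (2222 lower, 1738 higher), against 5003 without it, and the pancreatic genes still gave 32 lower and 1 higher. The number does not pair libraries (r of same-number deviations 0.0362, 0.136, -0.135 and 0.117). With close pairs summed 1558 genes were called, while voom with a random pair effect called 2836.

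The counts in the other lists are small and moved with the settings. In the acinar list, 0 genes were called higher (1 in the fit reported) with library size alone, the mouse number block, close pairs summed, the random pair block, without mutants 4 and 5, and without WT 3 and 4, and 0 to 1 with single libraries left out. In the beta cell list, 2 were lower (4) with close pairs summed, the random pair block and without WT 3 and 4, and 1 was higher (0) without the filter and without mutants 2 and 3. In the islet and gut endocrine list, the lower count (1) was 2 with RLE factors, no filter, the 1 CPM filter, the random pair block, without mutants 4 and 5 and without WT 1 and 2, 3 without mutants 2 and 3, 4 with DESeq2, 0 with close pairs summed, and 1 to 2 with single libraries left out; 1 was higher (0) with the mouse number block, without mutants 2 and 3 and without WT 1 and 2. In the duct list, the higher count (1) was 0 without WT 3 and 4 and in the fit to summed pairs, 2 without WT 1 and 2, and 1 to 2 with single libraries left out. In the adipose list 1 was lower (0) without WT 3 and 4 and 1 higher (0) without WT 1 and 2, and in the stomach list 1 was higher (0) without the filter and with DESeq2. In the liver list, the lower count (2) was 1 with the 1 CPM filter, the mouse number block, without mutants 2 and 3, without mutants 4 and 5 and without WT 1 and 2, 0 with close pairs summed and the random pair block, and 1 to 2 with single libraries left out. In the mesothelium list 1 was higher (0) with DESeq2, the mouse number block and without mutants 4 and 5, and 0 to 1 with single libraries left out. With close pairs summed, the lower count of the follicle list was 0 (1) and the higher count of the enterocyte list was 0 (3). The causes were not tested.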
